A study of Caenorhabditis elegans with 4 samples.

Results

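The genes described here code for subunits of ligand-gated ion channels of *Caenorhabditis elegans*. They are the rows of the count table whose locus tag carries, in the RefSeq or the WormBase gene table, a symbol starting with *acr-* (acetylcholine receptor) or *lgc-* (ligand-gated channel). The rule found 77 genes among the 21895 in the table, 21 of them *acr* and 56 *lgc*. Both gene tables gave the same 77. The rule reads only symbols and no measured value, but the family was chosen with earlier results of these data known.

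These subunits belong to the Cys-loop family. Subunits of this family assemble in a ring around a pore, which opens when a transmitter binds on the outside of the cell. Acetylcholine-gated cation channels excite muscle and neurons and are the target of the anthelmintic levamisole, while GABA, acetylcholine and biogenic amines also open chloride channels that inhibit the cell. Nematodes have many more such genes than vertebrates, and for a large share of the *lgc* genes no ligand is given here.

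RNA was sequenced from whole worms of the wild-type Bristol N2 strain, in 4 libraries. Before lysis, worms had spent 24 h in gently shaken M9 buffer. This held Cyclo(Pro-Tyr), a proline-tyrosine cyclodipeptide, at 0.25 mg/mL for 2 libraries and DMSO for the other 2, at an amount that is not given. All had been raised on agar with *E. coli* OP50 and synchronised by bleaching. Their stage at the start was embryos or L1 larvae, with no more detail. The comparison asks how expression differed between worms exposed to the compound and worms kept with DMSO.

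The libraries held 40240674 to 52987317 counts in genes, of which the 77 members took 0.105% to 0.112%. Levels are in CPM, which scales each count to its library's total after TMM, a correction for library composition. In these units 1 count was worth 0.0188 to 0.0256 CPM. Replicates within a group differed by more than sampling noise and each was counted as 1 sample. The labels do not say whether they came from separate cultures, so p-values measure only the spread between these libraries, which may be technical. Each log2 fold change sets Cyclo(Pro-Tyr) over DMSO and comes from edgeR's quasi-likelihood test, with its standard error (SE) and a p adjusted over 19439 tested genes. The threshold was 0.05.

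No channel subunit was past the threshold, although most lay slightly higher in Cyclo(Pro-Tyr). All 77 members passed the filter on low counts and were tested, and edgeR called 0 of them, where it called 2.05% of all tested genes (0.715% higher and 1.33% lower). At an unadjusted p under 0.05 there were 16 members, 10 higher and 6 lower, or 20.8% of the 77 beside 27.3% of all tested genes. Limma-voom also called 0. DESeq2's Wald test called 5, of which *lgc-35* was higher and *lgc-21*, *lgc-22*, *lgc-27* and *lgc-34* were lower. It called 9.20% of all genes tested. In whole worms fewer cells of a type and less RNA per cell cannot be told apart.

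The direction of the small differences was uneven. The log2 fold change was above 0 for 56 of the 77 members (72.7%) beside 49.7% of all tested genes, with a median of 0.21 for the members and -0.0032 for all genes. Both treated libraries lay above both DMSO libraries for 43 members (55.8%), beside 29.6% of all genes, and below them for 7 members (9.09%), beside 30.8% of all genes. The groups were apart in either direction for 60.5% of all genes and overlapped for the other 27 members. For 32 of the 43 higher members, Cyclo(Pro-Tyr) replicate 2 lay farther from DMSO than replicate 1 did. The share of all genes with this pattern was not computed. Leaving out 1 library at a time gave a median between 0.16 and 0.23, with 53 to 59 members above 0.

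Most differences were small. For 68 members the log2 fold change was within 0.5 of 0, and 2 members, *lgc-27* and *lgc-17*, reached a 2-fold difference in the fit. Summed over all 77 genes the level was 1086 ± 19.0 CPM in DMSO and 1087 ± 9.86 CPM with Cyclo(Pro-Tyr) (mean ± SD, n = 2 libraries for these and all later means). The family total was therefore nearly the same in both groups, with its members apart in direction.

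**Figure D1:**
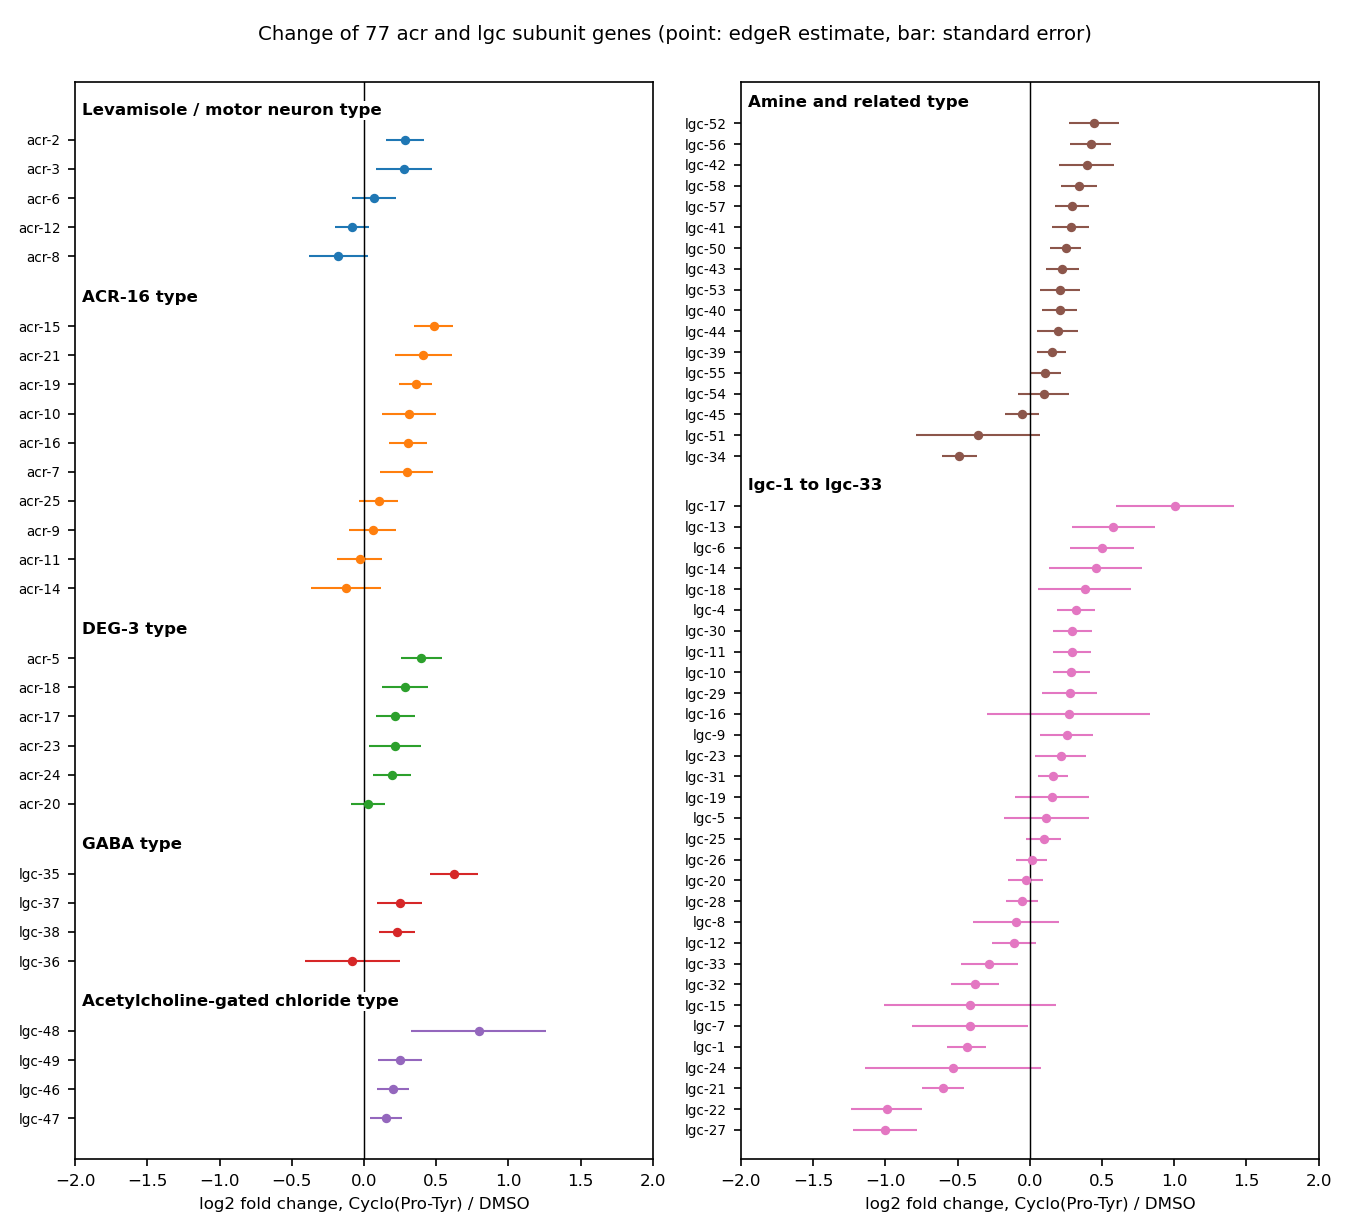
Log2 fold change of Cyclo(Pro-Tyr) over DMSO for each of the 77 members, as the edgeR estimate (point) and its standard error (bar). Members are grouped by receptor type, except *lgc-1* to *lgc-33*, which are grouped by number. Most points lie slightly right of 0, and *lgc-27* and *lgc-22* lie farthest to the left.

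Among members whose groups did not overlap, the 4 farthest below DMSO were also the most abundant of the family per kilobase. The rare *lgc-24*, whose groups overlapped, had a log2 fold change of -0.53 (SE 0.61). Per kilobase of exon, the 4 highest mean levels over all libraries were those of *lgc-22* (39.4 CPM per kb), *lgc-34* (32.7), *lgc-21* (30.6) and *lgc-27* (27.1). None of these 4 is given a ligand here. In the DMSO libraries *lgc-22* was at 72.2 and 81.9 CPM, and in the Cyclo(Pro-Tyr) libraries at 50.04 and 27.3 CPM. Its log2 fold change was -0.99 (SE 0.25, edgeR adjusted p 0.0681). The groups did not overlap, and treated replicate 2 was lower than replicate 1 by more than the DMSO replicates differed.

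The *lgc-27* gene had a similar pattern, with 48.1 and 60.3 CPM in DMSO and 33.5 and 20.5 CPM with Cyclo(Pro-Tyr). It had the smallest p of the family, with a log2 fold change of -1.002 (SE 0.22, edgeR adjusted p 0.0575). Exons of *lgc-27* overlap *fut-6* on the opposite strand over 7.21% of their length. In *lgc-21* the DMSO libraries were nearly equal, at 55.5 and 55.95 CPM, and the treated libraries were at 41.9 and 31.5 CPM. The log2 fold change of *lgc-21* was -0.60 (SE 0.14, edgeR adjusted p 0.0648).

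The counts of *lgc-34* gave 52.3 and 55.9 CPM in DMSO and 42.04 and 35.02 CPM with Cyclo(Pro-Tyr), for a log2 fold change of -0.49 (SE 0.12, edgeR adjusted p 0.0689). For *lgc-1* the values were 21.5 and 22.9 CPM against 17.97 and 14.7 CPM, with a log2 fold change of -0.44 (edgeR adjusted p 0.0959). In each of these 5 genes both treated libraries lay below both DMSO libraries, and replicate 2 of the treated group was the lowest of the 4. The sum of these 5, chosen after their values were seen, was 263 ± 19.4 CPM in DMSO and 157 ± 39.9 CPM with Cyclo(Pro-Tyr). The sum of the other 72 members was 823.0 ± 0.391 and 930.1 ± 30.0 CPM. Since the family total was nearly equal in both groups, taking out these 5 leaves a higher remainder, which is no separate result. In the same libraries 10 epidermis markers summed to 1096 and 1316 CPM in DMSO and to 701 and 300.3 CPM in treated replicates 1 and 2, and their part in these values was not tested.

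The size of the difference depended on single libraries. Without Cyclo(Pro-Tyr) replicate 1 the log2 fold change of *lgc-22* was -1.50 and that of *lgc-27* was -1.40. Without Cyclo(Pro-Tyr) replicate 2 the values were -0.62 and -0.69. Both genes were past the threshold by edgeR in these fits, where the variance came from the DMSO libraries, with 16 members of 76 tested called in the first and 2 of 77 in the second. The same fits called 21.8% and 4.95% of all genes tested. Without DMSO replicate 1 the log2 fold change was -1.08 for *lgc-22* and -1.16 for *lgc-27*. Without DMSO replicate 2 it was -0.90 and -0.83.

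Of the remaining members below DMSO in both treated libraries, *lgc-32* was at 6.54 and 6.05 CPM in DMSO and 4.56 and 5.15 CPM with Cyclo(Pro-Tyr), at a log2 fold change of -0.38 (edgeR adjusted p 0.183). The other was *lgc-7*, a rare transcript with 21 and 24 counts in DMSO and 20 and 13 in the treated libraries. At this depth a difference of the size seen in *lgc-7* was not detectable (log2 fold change -0.41, SE 0.40).

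**Figure D2:**
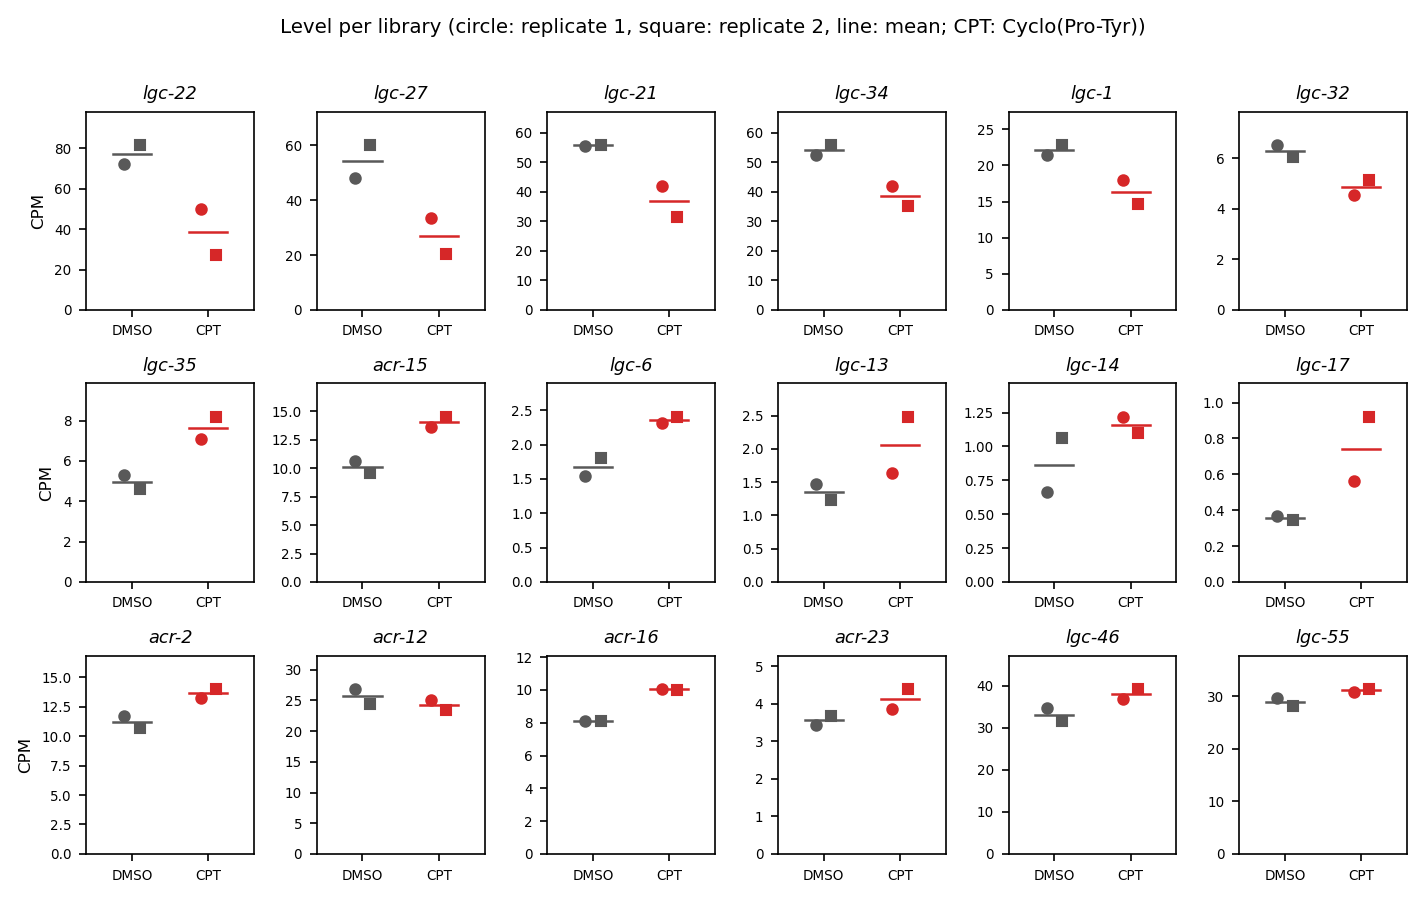
Level in CPM of 18 members in each library, with DMSO in grey, Cyclo(Pro-Tyr) (CPT) in red, circles for replicate 1, squares for replicate 2 and a line at the mean of each group. The top row shows members below DMSO, the middle row members above it and the bottom row subunits with a known assembly or ligand. In *lgc-22* and *lgc-27* the treated libraries lie well apart from each other.

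Among acetylcholine receptor subunits, 17 of 21 *acr* genes had a log2 fold change above 0, with a median of 0.22, and edgeR called 0 of them (3 at an unadjusted p under 0.05). The ACR-16 type, related to the vertebrate alpha-7 receptor, had a median of 0.30 over 10 genes, though this median was 0.11 without Cyclo(Pro-Tyr) replicate 2 and 0.18 without DMSO replicate 1. Of these, *acr-15* was at 10.6 and 9.56 CPM in DMSO and 13.7 and 14.5 CPM with Cyclo(Pro-Tyr). Its log2 fold change was 0.48 (SE 0.13, edgeR adjusted p 0.0777), and the groups were well apart. The neighbouring gene *acr-16*, which codes for the nicotine-sensitive, levamisole-insensitive receptor of body-wall muscle, was at 8.11 and 8.13 CPM in DMSO and 10.1 and 9.99 CPM with Cyclo(Pro-Tyr). The replicates of *acr-16* were nearly equal, and its log2 fold change was 0.31 (SE 0.13, edgeR adjusted p 0.189).

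Per kilobase the most abundant of this type was *acr-19* (13.9 CPM per kb), at 23.03 and 25.1 CPM in DMSO and 29.4 and 32.3 CPM with Cyclo(Pro-Tyr) (log2 fold change 0.36, edgeR adjusted p 0.104). In *acr-21* a single library set the difference, since the DMSO libraries were at 9.14 and 9.89 CPM and the treated ones at 10.2 and 15.2 CPM. The groups overlapped for *acr-7*, *acr-9*, *acr-11*, *acr-14* and *acr-25*, whose log2 fold changes ran from -0.12 to 0.30.

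The DEG-3 type, named after the channel whose mutation makes touch neurons degenerate, had 6 members, and all 6 had a log2 fold change above 0, from 0.03 for *acr-20* to 0.40 for *acr-5*. The *acr-5* gene was at 8.81 and 9.98 CPM in DMSO and 11.7 and 13.1 CPM with Cyclo(Pro-Tyr) (edgeR adjusted p 0.127). The betaine receptor *acr-23*, a target of the anthelmintic monepantel, was at 3.44 and 3.67 CPM in DMSO and 3.87 and 4.41 CPM with Cyclo(Pro-Tyr) (log2 fold change 0.21, SE 0.18). For *acr-18* the values were 4.9997 and 5.45 CPM against 6.21 and 6.51 CPM, with a log2 fold change of 0.28 (edgeR adjusted p 0.280). In 5 of the 6 genes, all but *acr-20*, both treated libraries lay above both DMSO libraries, beside 29.6% of all tested genes.

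Subunits of the levamisole and motor neuron type differed in direction. The *acr-2* and *acr-3* genes, neighbours on the chromosome, code for subunits of the motor neuron receptor that sets the balance of excitation and inhibition. In DMSO *acr-2* was at 11.7 and 10.7 CPM, and in Cyclo(Pro-Tyr) at 13.2 and 14.04 CPM (log2 fold change 0.29, SE 0.13, edgeR adjusted p 0.201). For *acr-3* the values were 4.86 and 3.63 CPM in DMSO and 5.22 and 5.12 CPM in the treated libraries (log2 fold change 0.28, SE 0.19). Their partner *acr-12* was at 26.9 and 24.3 CPM in DMSO and 24.99 and 23.4 CPM with Cyclo(Pro-Tyr), so its groups overlapped (log2 fold change -0.08, SE 0.12).

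The groups of *acr-6* (log2 fold change 0.07) overlapped as well. The *acr-8* gene was at 14.9 and 17.9 CPM in DMSO, and treated replicate 1, at 17.4 CPM, lay within the DMSO range while replicate 2, at 11.5 CPM, lay below it. Its log2 fold change of -0.18 was 0.09 without Cyclo(Pro-Tyr) replicate 2.

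GABA-type subunits were 4, of which *lgc-35* stood highest. This gene codes for a GABA-gated cation channel, which excites cells where other GABA receptors inhibit them. Its level was 5.29 and 4.597 CPM in DMSO and 7.10 and 8.197 CPM with Cyclo(Pro-Tyr), for a log2 fold change of 0.62 (SE 0.17, edgeR adjusted p 0.0747). The groups of *lgc-35* were apart by more than either pair of replicates differed. The GABA-A-like subunit gene *lgc-37* was at 10.4 and 8.62 CPM in DMSO and 12.1 and 10.5 CPM with Cyclo(Pro-Tyr), where the treated minimum was only just above the DMSO maximum. For *lgc-38* the log2 fold change was 0.23, and for *lgc-36*, at 0.743 to 1.17 CPM, it was -0.08 (SE 0.33).

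The type of acetylcholine-gated chloride channels, which let acetylcholine inhibit cells, had 4 members with log2 fold changes from 0.15 to 0.79. Both *lgc-46*, whose channel acts at presynaptic sites, and *lgc-47* were abundant. The *lgc-46* gene was at 34.6 and 31.6 CPM in DMSO and 36.9 and 39.3 CPM with Cyclo(Pro-Tyr) (log2 fold change 0.20, SE 0.11). Values for *lgc-47* were 30.02 and 29.5 CPM against 35.02 and 31.3 CPM (log2 fold change 0.15, SE 0.11). The 0.79 belonged to *lgc-48*, with 31 and 14 counts in DMSO and 57 and 20 counts in the treated libraries, and its groups overlapped (SE 0.47).

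Amine-gated and related subunits numbered 17, with 14 above 0, a median of 0.21 and *lgc-34* the only one below DMSO in both treated libraries. The serotonin-gated cation channel gene *lgc-50* was at 28.9 and 30.9 CPM in DMSO and 34.25 and 36.8 CPM with Cyclo(Pro-Tyr) (log2 fold change 0.25, SE 0.11, edgeR adjusted p 0.188). The dopamine-gated chloride channel gene *lgc-53* was at 9.999 and 8.78 CPM against 10.8 and 10.9 CPM (log2 fold change 0.21, SE 0.14). Tyramine opens the chloride channel of *lgc-55*, which takes part in the escape response, and that gene was at 29.6 and 28.02 CPM in DMSO and 30.7 and 31.4 CPM with Cyclo(Pro-Tyr) (log2 fold change 0.11, SE 0.11). In all 3 the treated libraries lay above the DMSO libraries by a small margin.

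The next highest levels per kilobase after the 4 genes above were those of *lgc-39* (22.1 CPM per kb), which codes for a channel opened by several transmitters, and *lgc-40* (18.9 CPM per kb). In DMSO *lgc-39* was at 38.4 and 39.6 CPM and in Cyclo(Pro-Tyr) at 42.6 and 44.03 CPM (log2 fold change 0.15, SE 0.10). For *lgc-40*, whose channel responds to choline, acetylcholine and serotonin, the values were 30.85 and 28.2 CPM against 31.45 and 36.7 CPM (log2 fold change 0.21, SE 0.12). The largest log2 fold changes above 0 in this group were those of *lgc-52* (0.45), *lgc-56* (0.42) and *lgc-42* (0.40), with edgeR adjusted p from 0.113 to 0.225.

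The 31 genes numbered from *lgc-1* to *lgc-33* were grouped by number and not by function. Of these 18 had a log2 fold change above 0 and 13 below it, with a median of 0.11 and a range from -1.002 to 1.005. Of the 7 members of the family that lay below DMSO in both treated libraries, 6 were in this group, and 13 of its 31 genes lay above DMSO in both. Over all tested genes 30.8% lay below and 29.6% above. The *lgc-4* gene was at 26.9 and 28.6 CPM in DMSO and 31.04 and 38.3 CPM with Cyclo(Pro-Tyr) (log2 fold change 0.32, SE 0.13). At the other end of variation, *lgc-26* was at 24.1 and 24.03 CPM in DMSO and 23.9 and 24.7 CPM in the treated libraries.

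Several genes of this group sit next to each other. The genes *lgc-13* to *lgc-18* form a run on 1 chromosome with at most 1 other gene between neighbours, and each had a mean level between 0.210 and 1.71 CPM. Within the run *lgc-17* had 19 and 15 counts in DMSO and 30 and 36 counts in Cyclo(Pro-Tyr), for a log2 fold change of 1.005 (SE 0.41, edgeR adjusted p 0.162). The *lgc-13* gene had 76 and 53 counts against 87 and 97 (log2 fold change 0.58, SE 0.29). For *lgc-14* the counts were 34 and 46 against 65 and 43 (log2 fold change 0.45, SE 0.32). The rest of the run had log2 fold changes of -0.41 (*lgc-15*, SE 0.60), 0.27 (*lgc-16*, SE 0.57) and 0.38 (*lgc-18*, SE 0.32). The groups of *lgc-15* and *lgc-16* overlapped. Next to *lgc-5*, *lgc-6* had 79 and 78 counts in DMSO and 123 and 94 in Cyclo(Pro-Tyr) (log2 fold change 0.50, SE 0.22). The raw counts of *lgc-14* overlap between groups, and the groups separate only after scaling to library size. Related genes side by side can share reads, and how the counting divided these is not known.

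Levels spanned a wide range across the family. Of the 77 genes, 40 had a mean of at least 10 CPM, 29 lay between 1 and 10 CPM, and 8 lay under 1 CPM. Every member was seen in every library, the lowest count being 5, in *lgc-24*. Per kilobase the range ran from 0.162 CPM for *lgc-24* to 39.4 CPM for *lgc-22*. Of the 10 members with the highest mean CPM, 5 lay above DMSO in both treated libraries, 4 lay below and 1 overlapped. Over all tested genes 29.6% lay above and 30.8% below.

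**Figure D3:**
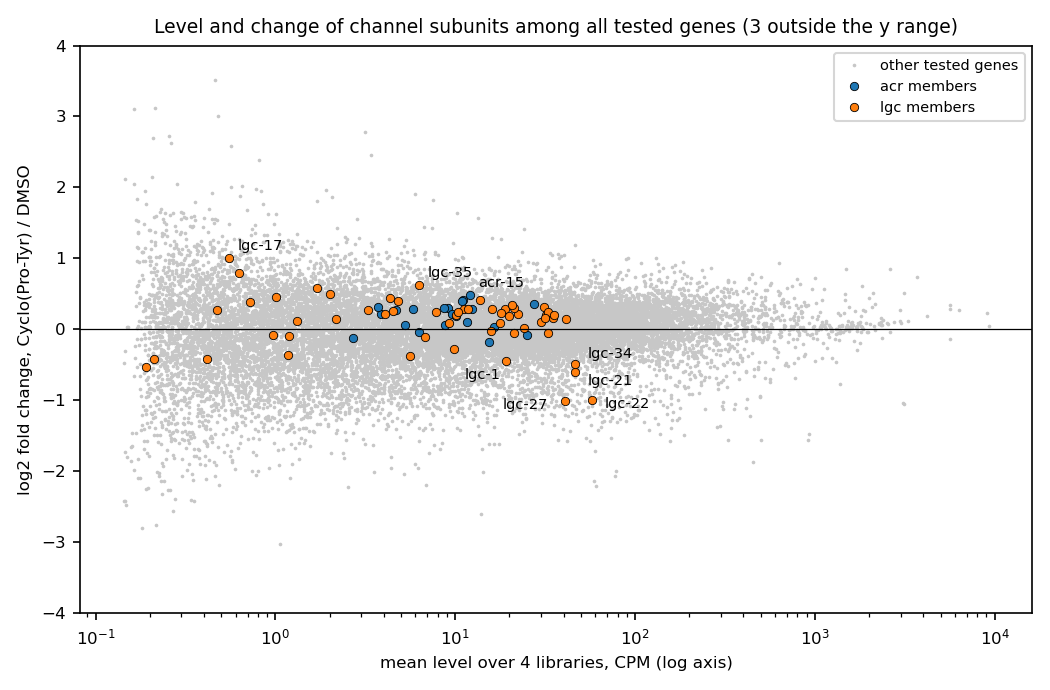
Log2 fold change of Cyclo(Pro-Tyr) over DMSO against the mean level in CPM (log axis) for all tested genes (grey), *acr* members (blue) and *lgc* members (orange). Members lie within the cloud of other genes, and *lgc-22*, *lgc-27*, *lgc-21* and *lgc-34* are both abundant and below 0.

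Channel subunits with other names were measured in the same fit. For this and the later lists, edgeR called 2.05% of all tested genes, and 27.3% had an unadjusted p under 0.05. Of 11 subunits listed with the acetylcholine receptors, edgeR called 0 (3 at an unadjusted p under 0.05), with a median log2 fold change of 0.05. The list includes *cup-4*, *pbo-5* and *pbo-6*, which are not established acetylcholine receptor subunits. The levamisole receptor of body-wall muscle is built from UNC-29, UNC-38, UNC-63, LEV-1 and LEV-8. Of their genes *unc-63* stood lowest, at 5.66 and 5.34 CPM in DMSO and 2.82 and 3.28 CPM with Cyclo(Pro-Tyr), for a log2 fold change of -0.86 (SE 0.18, edgeR adjusted p 0.0541). The other levamisole receptor genes had log2 fold changes of 0.05 (*unc-29*), 0.095 (*unc-38*), -0.03 (*lev-1*) and -0.25 (*lev-8*), with SE of 0.10 to 0.16. The DEG-3 channel is made of DEG-3 and DES-2, and *des-2* was at 13.1 and 15.7 CPM in DMSO and 19.7 and 21.4 CPM with Cyclo(Pro-Tyr) (log2 fold change 0.52, edgeR adjusted p 0.0729).

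The list of other inhibitory-type subunits held 14 genes, among them those of the glutamate-gated chloride channels hit by ivermectin. It also held *exp-1*, whose channel is not inhibitory. All 14 had a log2 fold change above 0, with a median of 0.32. EdgeR called 0 of the 14 and 7 had an unadjusted p under 0.05, beside 27.3% of all tested genes. In 12 of the 14 both treated libraries lay above both DMSO libraries, beside 29.6% of all tested genes. The ivermectin receptor gene *glc-1* was at 48.6 and 43.2 CPM in DMSO and 62.3 and 88.9 CPM with Cyclo(Pro-Tyr), for a log2 fold change of 0.72 (SE 0.17, edgeR adjusted p 0.0628). For *acc-3*, of an acetylcholine-gated chloride channel, the values were 7.86 and 8.43 CPM against 11.4 and 12.2 CPM (log2 fold change 0.54, edgeR adjusted p 0.0695).

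Genes that assemble or cluster these receptors showed no common direction, with 9 of 18 above 0 and 0 called by edgeR (5 at an unadjusted p under 0.05). The chaperone gene *ric-3*, needed for acetylcholine receptors to mature, was at 51.3 and 55.4 CPM in DMSO and 50.1 and 45.6 CPM with Cyclo(Pro-Tyr) (log2 fold change -0.16, SE 0.11). The calcineurin gene *tax-6* was at 226 and 251 CPM against 326 and 335 CPM (log2 fold change 0.47 at an edgeR adjusted p of 0.0681). The *emc-6* gene, of the membrane protein complex that helps insert receptors, had a log2 fold change of -0.46 (edgeR adjusted p 0.0681). It shares 61.3% of its exon length with *mrpl-1* on the same strand, so its counts are uncertain.

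In the list of acetylcholine supply and breakdown, 1 of 9 genes was past the threshold, beside 2.05% of all tested genes. The acetylcholinesterase gene *ace-2* rose from 70.9 and 73.9 CPM in DMSO to 103 and 111 CPM with Cyclo(Pro-Tyr), at a log2 fold change of 0.56 (SE 0.10, edgeR adjusted p 0.0468). Its call was lost with total counts, with the filter of 1 CPM, with the replicate block and without either DMSO replicate, at adjusted p up to 0.351. A second esterase gene, *ace-4*, had a log2 fold change of 0.29 (edgeR adjusted p 0.161). The vesicular acetylcholine transporter gene *unc-17* was at 46.5 and 43.9 CPM against 54.1 and 52.3 CPM (log2 fold change 0.24 at an edgeR adjusted p of 0.186).

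The 14 genes of GABA and amine supply held 0 calls by edgeR (4 at an unadjusted p under 0.05), and the smallest p values were those of the dopamine transporter gene *dat-1* (log2 fold change 0.32) and the octopamine synthesis gene *tbh-1* (0.44). Among 12 genes of ionotropic glutamate receptors, a separate family, 10 were above 0 and 1 was called, beside 49.7% and 2.05% of all tested genes. The called gene was *sol-2*, which codes for an auxiliary protein of glutamate receptors. It fell from 51.7 and 61.8 CPM to 35.8 and 35.8 CPM, with a log2 fold change of -0.67 (SE 0.12, edgeR adjusted p 0.0458), and lost its call under the same alternatives as *ace-2*. The subunit gene *glr-5* had a log2 fold change of 0.32 (edgeR adjusted p 0.123).

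Cell type marker lists lay on different sides of 0. Of 20 pan-neuronal markers, 17 were above 0 with a median log2 fold change of 0.26 beside the 0.21 of the channel subunits, and edgeR called 0 of them (6 at an unadjusted p under 0.05). Their summed level was 4643 to 4720 CPM in DMSO and 5516 to 6250 CPM with Cyclo(Pro-Tyr). Of 14 body-wall muscle markers, 9 were above 0 (median 0.12, summed 11679 to 13262 CPM in DMSO and 14127 to 14246 CPM with Cyclo(Pro-Tyr)). Of 7 pharyngeal muscle markers 6 were above 0 (median 0.18, 4540 to 5171 CPM and 5768 to 6257 CPM).

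Genes of the epidermis and of moulting lay on the other side. Of 10 epidermis markers 9 were below 0 (median -1.14), with the sums given above. Of 14 moulting genes 13 were below 0 (median -0.92), with sums of 1416 to 1859 CPM in DMSO and 1356 and 918 CPM in replicates 1 and 2 of Cyclo(Pro-Tyr). Treated replicate 2 was thus the lowest library for both lists, as it was for *lgc-22*, *lgc-27*, *lgc-21*, *lgc-34* and *lgc-1*. EdgeR called 0 genes of either list, with 6 and 9 at an unadjusted p under 0.05. Of 12 germline markers 10 were below 0, and 2 of them were called (*oma-1* and *oma-2*), beside 2.05% of all tested genes. The germline sums were 201 to 211 CPM in DMSO and 175 to 179 CPM with Cyclo(Pro-Tyr). Intestine markers had a median of 0.04, with 7 of 10 above 0 and sums of 8232 to 9427 CPM in DMSO and 7685 to 8920 CPM with Cyclo(Pro-Tyr). No marker of any list was at 0. The part that cell composition or stage had in the channel values was not tested.

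**Figure D4:**
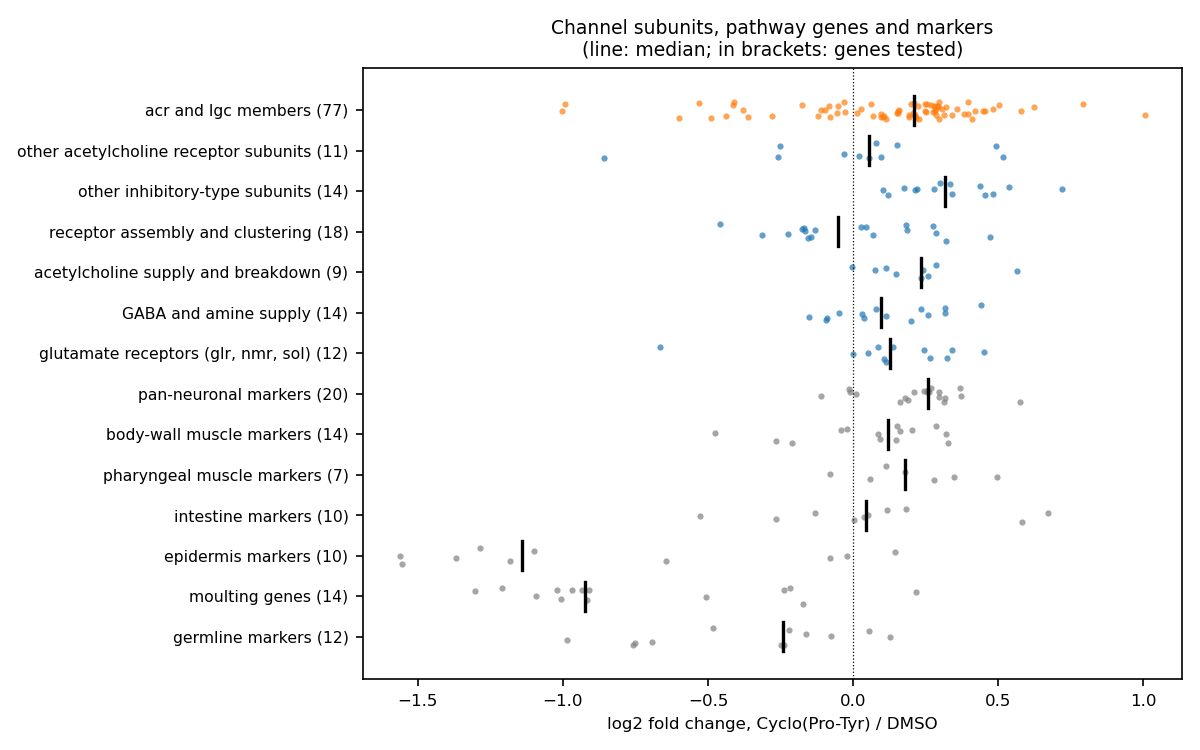
Log2 fold change of Cyclo(Pro-Tyr) over DMSO for the 77 members (orange), for genes of 6 pathway lists (blue) and for 7 marker lists (grey), with 1 point per gene and a line at the median of each list. The members' median of 0.21 lies beside a pan-neuronal median of 0.26, and the epidermis and moulting medians lie at -1.14 and -0.92.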

How the data were processed

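The authors deposited raw counts, whole numbers of reads per gene with 1 column per library. Bowtie2 and SAMtools are named in the submitters' processing notes. What the reads were aligned to, the build, the counting tool and its use of strand are not given, so no coordinates are printed. Groups and replicate numbers came from the sample titles, 2 libraries per group. For Cyclo(Pro-Tyr) replicate 2 the treatment label reads replicate 1, so its title decided. The incubation was at 19 °C in the protocol and at 20 °C in the series text.

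Symbols came from RefSeq for WBcel235, which matched 21890 of 21895 rows. Exon lengths and overlaps came from the Ensembl annotation, which gave a length for all 77 members. Exons of 32 members overlap a gene on the opposite strand. Without a stated strand setting such reads cannot be told apart.

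Counts were tested with edgeR 4.0.16 (R 4.3.3; quasi-likelihood test, filterByExpr, TMM, treatment as the only term) over 19439 genes with Benjamini-Hochberg adjustment. The fit was tested on simulated data, with an outcome that is not given here. Alternatives used limma 3.58.1 (voom), DESeq2 1.42.0, other scalings and filters, a replicate block and fits without each library. Where 1 library is left out, the lone library is assumed to vary like the other group.

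The members and lists were chosen with earlier results of these data known. Of the listed symbols, *acr-13*, *acr-22*, *lgc-2*, *lgc-3*, *ggr-1*, *ggr-2*, *ggr-3* and *unc-74* matched no row. Members named by rule were every called one, the 6 farthest above and the 6 farthest below DMSO (groups apart, mean at least 0.5 CPM), the 6 highest per kilobase and 15 with a known ligand or assembly. Pathway genes named by rule were the called ones, the 2 smallest p of each list, and *unc-29*, *unc-38*, *unc-63*, *lev-1*, *lev-8*, *ric-3* and *unc-17*. Further genes were named after their values were seen.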

Additional observations from a re-analysis of the deposited data

How the results depend on the processing

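The count of called members was 0 with DESeq2 size factors, total counts, no filter, the filter of 1 CPM in 2 libraries, limma-voom and the replicate block. These settings called 1.03% to 2.21% of all genes tested. Upper-quartile scaling gave 1 (0 higher, 1 lower, *lgc-27*) and called 4.33% of all genes. DESeq2's Wald test gave 5 (1 higher, 4 lower) and called 9.20% of all genes. Leaving out 1 library at a time gave 0 to 16 called members (0 to 9 higher, 0 to 7 lower). The highest count, without Cyclo(Pro-Tyr) replicate 1, came with a prior degrees of freedom of 63.1 and 21.8% of all genes called. The median log2 fold change of the members, 0.21, was 0.24 with upper-quartile scaling, 0.18 with total counts and 0.16 to 0.23 without 1 library. That of the ACR-16 type was 0.11 to 0.36 and that of the DEG-3 type 0.19 to 0.28 without 1 library. Pathway genes called, 2 in the report, were 0 with total counts, with the filter of 1 CPM in 2 libraries and with the replicate block, 10 by DESeq2's Wald test and 0 to 17 without 1 library.

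Over the fits without 1 library in which each was tested, the log2 fold change turned in direction for 17 of the 77 members, *acr-6*, *acr-20*, *lgc-26* and *lgc-36* among them, and kept it for the other 60. All 17 were among the 27 members whose groups overlapped. A member whose groups are apart can hardly turn when 1 library is left out, so its kept direction adds no support. With all libraries, the largest absolute log2 fold change among the 17 was 0.41. Among genes named by the rule it turned for *lev-1* without DMSO replicate 1 (-0.063 to 0.0015 over the fits without 1 library), *unc-29* without Cyclo(Pro-Tyr) replicate 1 (-0.064 to 0.16) and *acr-8* without Cyclo(Pro-Tyr) replicate 2 (-0.51 to 0.090). The cause of these differences was not tested. The labels do not say whether the replicate numbers pair the libraries. The differences between replicates 1 and 2 in the 2 groups had a correlation of -0.202 across genes. With 1 such difference per group, this value cannot decide the question. The block gave 221 calls among all genes in place of 398. Pairing the numbers crosswise, chosen after the data were seen, gave 4581 calls among all genes, or 23.6% of those tested. Of these calls, 10 were among the 77 members (5 higher, 5 lower) and 19 were in the pathway lists. Members under 1 CPM rest on few counts, with SE of 0.32 to 0.61, all above the family's median log2 fold change of 0.21. The largest difference among them, 1.005 in *lgc-17*, was not past the threshold (edgeR adjusted p 0.162).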
